A study of Mus musculus with 12 samples.

Results

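Gm10600 and 9 other predicted genes of a repeated block on mouse chromosome 4 were chosen by name from the deposited count table, with values of the Old tumor against Young tumor contrast in view. All 10 names were found among the 47643 genes of the table, 1 row each. All 10 genes lie between 41941572 and 42631714 of chromosome 4 in GENCODE M21, whose build GRCm38 is the same assembly as the mm10 build of the submitters' processing notes. Their values between the ages are therefore descriptions, and where the fit over all genes called a member, nothing is read from the call.

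The study compared tumors harvested from old and young mice by bulk sequencing of poly(A) RNA. There were 6 Old tumor and 6 Young tumor libraries, all labelled as pancreatic tumor of the cell line KPC4662, a mouse pancreatic cancer line, and all carrying the same cell type label, epithelial. Age in numbers, strain, sex and treatment are not given in the labels used here, nor whether the 6 pieces of an age came from 6 mice, so spreads and p-values measure only the differences between these pieces. The libraries held 17755000 to 24098000 expected counts, rounded to the nearest 1000, the estimated read counts that RSEM assigns to each gene, and Old tumor 6 was the shallowest. Summed levels of 6 epithelial markers spanned 4704 to 7401 CPM in Old tumors and 5070 to 9283 CPM in Young tumors, where CPM is the count scaled to a common library size with TMM factors. In bulk tissue, fewer cells of a type and less RNA per cell cannot be told apart.

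This stretch of mouse chromosome 4 holds several copies of chemokine and cytokine receptor genes. CCL21 and CCL19 are the ligands of CCR7 and guide dendritic cells and T cells through lymphatic vessels and lymph nodes; CCL27 is a chemokine best known from skin; IL11RA is the subunit of the interleukin 11 receptor that binds the cytokine. Copies that are alike in sequence are hard to tell apart by short reads, and a program such as RSEM divides reads that match several copies among them. Each value of a single copy is therefore uncertain, and sums over alike copies are given beside it.

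By alignment of the annotated transcripts, the 10 members fell into 5 families. Gm13304 is a copy of the CCL21 gene, Gm2564 of the CCL19 gene, Gm20878 of the CCL27 gene and Gm13305 of the IL11RA gene. The other 6 members, Gm10600, Gm17167, Gm5859, Gm3883, Gm10593 and Gm3892, aligned with each other and with none of these 4 gene families, and are called the repeat members here. No function is given for them in the sources used here. GENCODE M21 lists Gm10600 as protein coding and RefSeq lists it as a pseudogene. Gm5859 and Gm3883 are pseudogenes in both, Gm17167 is a processed transcript without a reading frame in GENCODE, and Gm10593 and Gm3892 are antisense transcripts there. Gm2564 is protein coding in GENCODE and a transcribed pseudogene in RefSeq, while Gm13304, which RefSeq also names Ccl21b and Ccl21c, Gm20878 and Gm13305 are protein coding in both.

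The sequence that sets Gm10600 apart is short. Of the 1998 different stretches of 50 bases in its 2047-base transcript, 7.51% occurred in no other annotated transcript, and they lay in 3 runs of 99 bases each. Stretches of 50 bases can be placed on Gm10600 alone only in these runs, and longer reads or read pairs were not examined. The first run, in the single exon of Gm10600 and inside its annotated reading frame (bases 748 to 846 of the transcript), is shown beside the same stretch of 3 alike transcripts. It lies at chr4:42241386-42241484 of GRCm38 on the plus strand; the stretch of Gm17167 lies at chr4:42232770-42232868, that of Gm2163, which is no member, at chr4:42589099-42589197, and that of Gm5859 at chr4:42238513-42238611, all on the plus strand. Capitals mark the bases at which Gm10600 and the named transcript differ; in the line of Gm10600 they mark each base that differs from at least 1 of the others. The sequences are those of GENCODE M21, read 5′ to 3′.
Gm10600: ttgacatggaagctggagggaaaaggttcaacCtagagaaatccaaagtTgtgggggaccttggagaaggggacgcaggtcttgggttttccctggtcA
Gm17167: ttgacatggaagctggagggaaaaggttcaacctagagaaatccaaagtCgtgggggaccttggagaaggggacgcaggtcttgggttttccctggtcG
Gm2163: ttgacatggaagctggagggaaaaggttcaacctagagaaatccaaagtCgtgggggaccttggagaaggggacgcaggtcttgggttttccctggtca
Gm5859: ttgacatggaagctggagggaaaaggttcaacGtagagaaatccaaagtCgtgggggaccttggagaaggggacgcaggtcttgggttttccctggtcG

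Counted from 1 at the 5′ end of the Gm10600 transcript, T797C separated Gm10600 from all 3 others in this stretch. A846G separated it from Gm17167 and Gm5859, and C780G from Gm5859. Over their longest alignments, Gm10600 matched Gm17167 at 99.5% of 1940 aligned bases, Gm5859 at 99.4% of 1417, Gm10593 and Gm3892 at 99.35% of 1072, and Gm3883 at 99.2% of 1037. Gm10600 aligned with 17 other genes in all, each of them on this part of chromosome 4. They include 4 copies of Fam205a, which matched it at 94.0% of 299 bases.

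Gm13304 and Ccl21a show the same closeness in a chemokine gene. Over 837 aligned bases they differed at 5, of which 2 were in the reading frame. The stretch of 201 coding bases that holds both differences is shown, with the differing bases in capitals; it crosses an intron, lies between 42114897 and 42115279 on the plus strand for Gm13304 and between 42773498 and 42773880 on the minus strand for Ccl21a, and was taken from the GENCODE M21 transcripts on GRCm38.
Gm13304: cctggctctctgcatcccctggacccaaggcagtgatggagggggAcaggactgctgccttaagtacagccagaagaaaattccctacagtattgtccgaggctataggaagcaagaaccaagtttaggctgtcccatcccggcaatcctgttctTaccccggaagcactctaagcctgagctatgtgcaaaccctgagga
Ccl21a: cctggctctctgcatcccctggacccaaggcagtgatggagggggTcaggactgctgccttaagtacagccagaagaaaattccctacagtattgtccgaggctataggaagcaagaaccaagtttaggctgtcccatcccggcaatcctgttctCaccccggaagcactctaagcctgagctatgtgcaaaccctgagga

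Counted from the 5′ end of the Gm13304 transcript, the differences from Gm13304 to Ccl21a are A126T and T236C. No stretch of 50 bases was unique to Gm13304, since the transcript of Gm21541, another CCL21 copy, holds all 837 of its bases; Gm21541 was listed at 0 in all 12 libraries. Around their starts some copies matched closely and others did not. RefSeq promoters (GRCm38.p6) of 300 bases, from 250 before to 50 after the start, were compared without gaps at the offset with most matches. Inserted bases or another annotated start can lower such a match, so a low match does not show that the sequences diverged. All 300 bases of the Gm13304 promoter matched Gm10591. Against Ccl21a 3 of 299 overlapping bases were unlike, and against Ccl21b 200 of 298. For Gm13305 all 299 overlapping bases matched Il11ra2, and 201 of 291 were unlike Il11ra1. For Gm20878 and Ccl27a 93 of 292 were unlike.

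**Figure D1:**
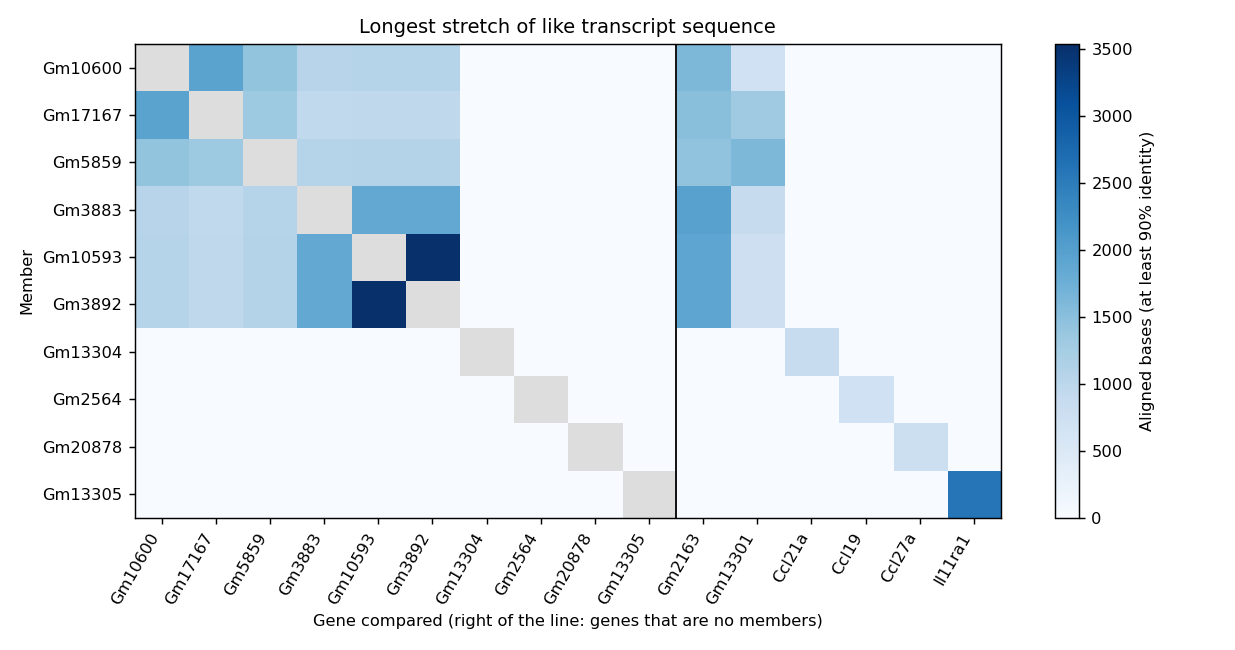
Length in bases of the longest alignment of at least 90% identity between the transcripts of each member (rows) and of the other members and 6 genes that are no members (columns, right of the black line); grey cells are a gene against itself. The 6 repeat members form 1 square of shared sequence, up to 3539 bases between Gm10593 and Gm3892, while Gm13304, Gm2564, Gm20878 and Gm13305 each aligned with 1 of the named genes shown and with no other member.

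The alignment plot shows that sharing stays within families. The share of transcript that was unique in stretches of 50 bases was 0% for Gm13304, Gm10593 and Gm3892, 10.9% for Gm5859, 10.4% for Gm3883, 27.5% for Gm2564, 34.3% for Gm13305, 37.8% for Gm17167 and 47.3% for Gm20878. The deposited values carry the trace of divided reads. Of the 83 values above 0 of the members, 96.4% were not whole numbers, against 30.7% of the values of 8154 other genes of like mean count. Gm10593 and Gm3892, whose transcripts are identical over 3539 bases, had the same value in each of the 12 libraries. Gm17167 is the only member with alignments outside chromosome 4: 9 of its 27 partners lie elsewhere, and the longest are with D10Wsu102e on chromosome 10 over 498 bases, Gm19265 on chromosome 6 over 311 and Gm15721 on chromosome 5 over 310.

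Gm10600 was detected in every Old tumor and in 1 Young tumor. Its expected counts were 75.17, 33, 36.23, 22.97, 40.29 and 20.81 in Old tumors 1 to 6, against 0, 1.3, 0, 0, 0 and 0 in Young tumors 1 to 6. The ages did not overlap: the lowest Old tumor had 20.81 counts and the highest Young tumor 1.3, and Old tumor 1 stood above the other Old tumors. The level averaged 1.65 ± 0.78 CPM in Old tumors and 0.0104 ± 0.0256 CPM in Young tumors (SD, n = 6 each). Without rounding, the ratio of the mean CPM was 158. On the rounded counts summed over libraries, which take the Young value of 1.3 as 1, there were 228 in Old tumors and 1 in Young tumors. The ratio of these was 216 after scaling. Its exact Clopper-Pearson 95% interval of 38.4 to 8566 covers counting error only. The spread between tumors and the division of reads among copies are left out of it, so it is no test of age. The fitted log2 fold change, Old over Young, was 6.95 with an SE of 0.61. With 5 Young tumors at 0 this value depends on the prior count and on Young tumor 2: without that library it was 8.21, and it was 3.70 on log2(TPM + 0.1) and 1.20 on log2(TPM + 1), scales that understate changes of low genes.

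In the edgeR quasi-likelihood fit over 16013 genes, 3 of the 10 members passed the filter on low counts and Gm10600 alone passed an adjusted p threshold of 0.05, where 0.793% of all tested genes passed in the higher direction. Gm10600 was on the same side in 21 of the 22 fits in which it was tested; in the remaining one, DESeq2, no adjusted p was given. Because the gene was chosen from this contrast, neither is read as support.

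Gm17167, whose transcript holds 1940 aligned bases of Gm10600, was also separated by age, with smaller counts and a smaller gap. It had 44.34, 21.31, 27.77, 19.78, 19.71 and 5.48 expected counts in Old tumors 1 to 6 and 5.59, 4.3, 1.55, 2.1, 0 and 4.91 in Young tumors 1 to 6. The counts of Old tumor 6 and Young tumor 1 overlapped, and after scaling for depth every Old tumor was above every Young tumor, at 0.303 CPM or more in Old tumors and 0.281 CPM or less in Young tumors. The mean was 0.980 ± 0.510 CPM in Old tumors and 0.144 ± 0.106 CPM in Young tumors (SD, n = 6 each).

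Gm5859, an unprocessed pseudogene, was listed at 0 in 1 Old tumor and in 5 Young tumors. Its counts were 21.27, 19.94, 11.14, 15.97, 28.1 and 0 in Old tumors 1 to 6 and 7.38 in Young tumor 4. The ages overlapped through Old tumor 6 and Young tumor 4, with means of 0.677 ± 0.413 CPM in Old tumors and 0.0539 ± 0.132 CPM in Young tumors (SD, n = 6 each). Gm3883, the second pseudogene of the repeat, had 9.42, 17.04 and 10.06 counts in Old tumors 1, 4 and 5, 1.48 counts in Young tumor 1, and 0 in the other libraries. Its ages overlapped. Without rounding, the ratio of the mean CPM of Gm3883 was 20.7. Summed and rounded, which takes the Young value of 1.48 as 1, Gm3883 had 36 counts in Old tumors and 1 in Young tumors, a ratio of 34.1. The exact 95% interval for counting error alone was 5.74 to 1384. Gm10593 and Gm3892 each had 4.46, 11.39, 3.69, 3.28, 3.32 and 0 counts in Old tumors 1 to 6 and 0.66, 1.5, 0, 0, 0 and 2.84 in Young tumors 1 to 6, so their ages overlapped. They are the same measurement under both names, since their transcripts cannot be told apart; whether the quantification used strand is not given in the sources used here, so reads of the genes on the opposite strand cannot be told apart from theirs either.

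**Figure D2:**
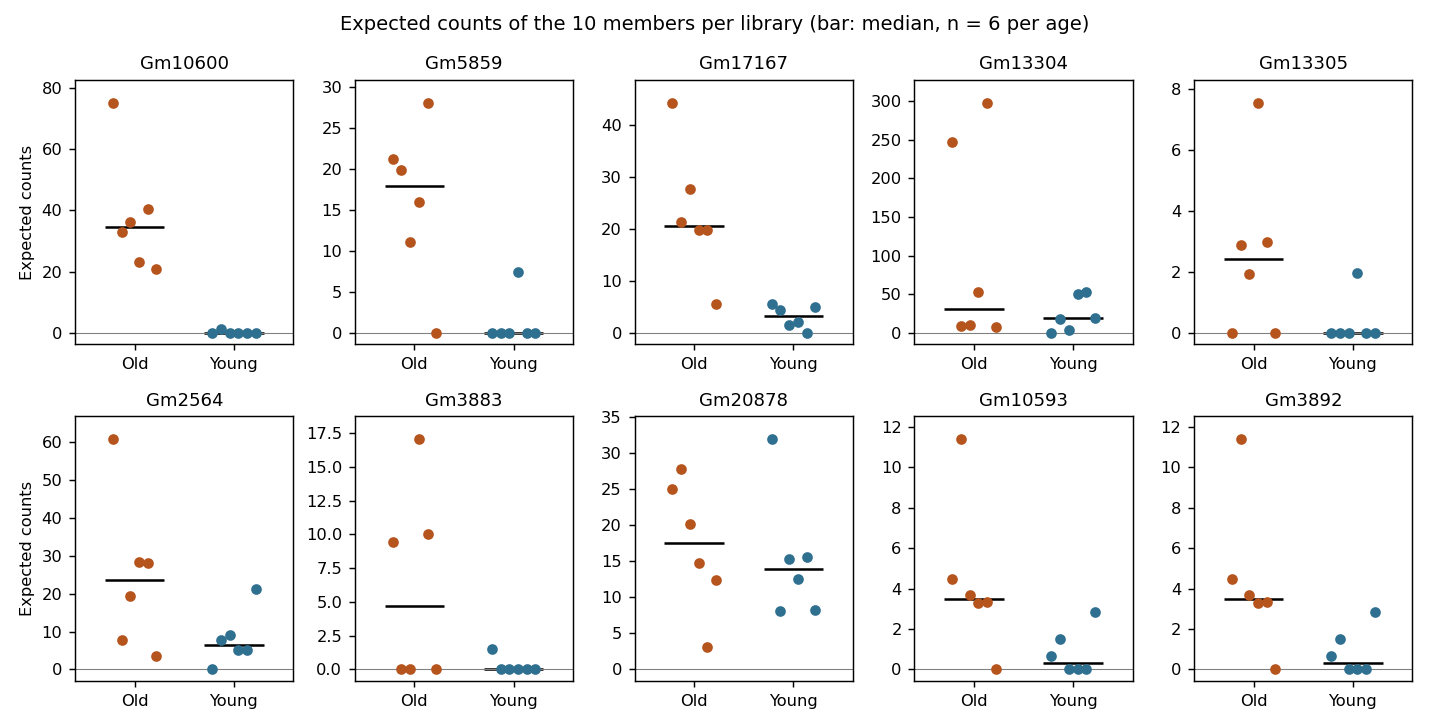
Expected counts of each member (1 panel per gene, each with its own linear axis) in the 6 Old tumor libraries (left, orange) and the 6 Young tumor libraries (right, blue), drawn from replicate 1 to 6 within an age; the bar is the median. Gm10600 lies between 20.81 and 75.17 in Old tumors with no Young tumor above 1.3, whereas the ages overlap widely for Gm20878, at 3.07 to 27.75 in Old tumors and 8.09 to 31.9 in Young tumors.

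The panels of counts by member show 3 kinds of pattern: the repeat members and Gm13305 with few or no counts in Young tumors, the copies of CCL21 and CCL19 with wide spread in Old tumors, and Gm20878 alike at both ages. The mean CPM was higher in Old tumors for all 10 members, where 54.5% of the 29399 genes with a count had a higher mean in Old tumors. Of the 10 members, 2 had every Old tumor above every Young tumor in CPM, against 0.592% of genes with a count. These were Gm10600 and Gm17167, which share sequence, and Gm10593 and Gm3892 hold the same values. The 10 members are therefore not 10 separate measurements. They were also chosen with this contrast in view, so nothing is read from either share. The number of members listed at 0 was 0 to 5 per library in Old tumors, with 5 in Old tumor 6 and at most 1 in each other, and 3 to 7 per library in Young tumors.

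Because reads were divided among the repeat genes, their sums are given beside the single values. The 6 repeat members together held 3.92 ± 1.69 CPM in Old tumors and 0.297 ± 0.204 CPM in Young tumors (SD, n = 6 each), with Old tumors at 1.45 to 6.62 and Young tumors at 0 to 0.458. The 17 other genes of the block that align with them, none of them a member, held 2.03 ± 1.12 CPM in Old tumors and 0.341 ± 0.166 CPM in Young tumors, also without overlap. Taking the 23 genes as 1 pool, the Old tumors had 10.8, 5.53, 5.59, 5.12, 5.55 and 3.09 CPM and the Young tumors 0.808, 0.510, 0.463, 0.614, 0.417 and 1.01 CPM. The lowest Old tumor was above the highest Young tumor in the pool too. The sum of the pool was whole to within 0.05 in 4 of 12 libraries, so some reads were also divided with genes outside it. The pool holds the members that were chosen from this contrast, and so carries no test.

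In Old tumors, 68.1% of the counts of this pool came from 1 short run of genes, and in Young tumors 34.4%. Gm17167, Gm13301, Gm5859, Gm17081 and Gm10600 follow each other on the plus strand over 35.7 kb, from 42206998 to 42242685; Gm13301 overlaps Gm17167, Gm5859 starts 1254 bases after the end of Gm13301, Gm17081 starts 542 bases after Gm5859, and Gm10600 starts 436 bases after Gm17081. Gm13301 and Gm17081 are pseudogenes that are no members, and the run was put together after its values had been seen. The 5 genes together held 169.21, 92.27, 100.37, 69.1, 97.15 and 38.86 expected counts in Old tumors 1 to 6, against 5.59, 5.6, 1.55, 9.48, 0 and 6.38 in Young tumors 1 to 6. Their summed level was 4.06 ± 1.68 CPM in Old tumors and 0.219 ± 0.154 CPM in Young tumors (SD, n = 6 each). Gm13301 was at 23.65, 17.4, 23.35, 7.23, 9.05 and 12.57 counts in the Old tumors and at 0 in all 6 Young tumors. By these listed values it was 29.4-fold higher in Old tumors when 3 counts over the Young group are taken as the floor. Gm13301 shares 1303 bases with Gm17167 without a difference, so its own level depends on how reads were divided between them. Gm17167 had 18.45 counts summed over Young tumors, some of which may belong to Gm13301, so 29.4 is no lower bound. The nearest of the members and listed genes on either side of the run had few counts: Gm13305 had 15.3 counts summed over Old tumors and 1.95 over Young tumors, and Ccl21b had 3.28 in Old tumors and 1.44 in Young tumors.

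**Figure D3:**
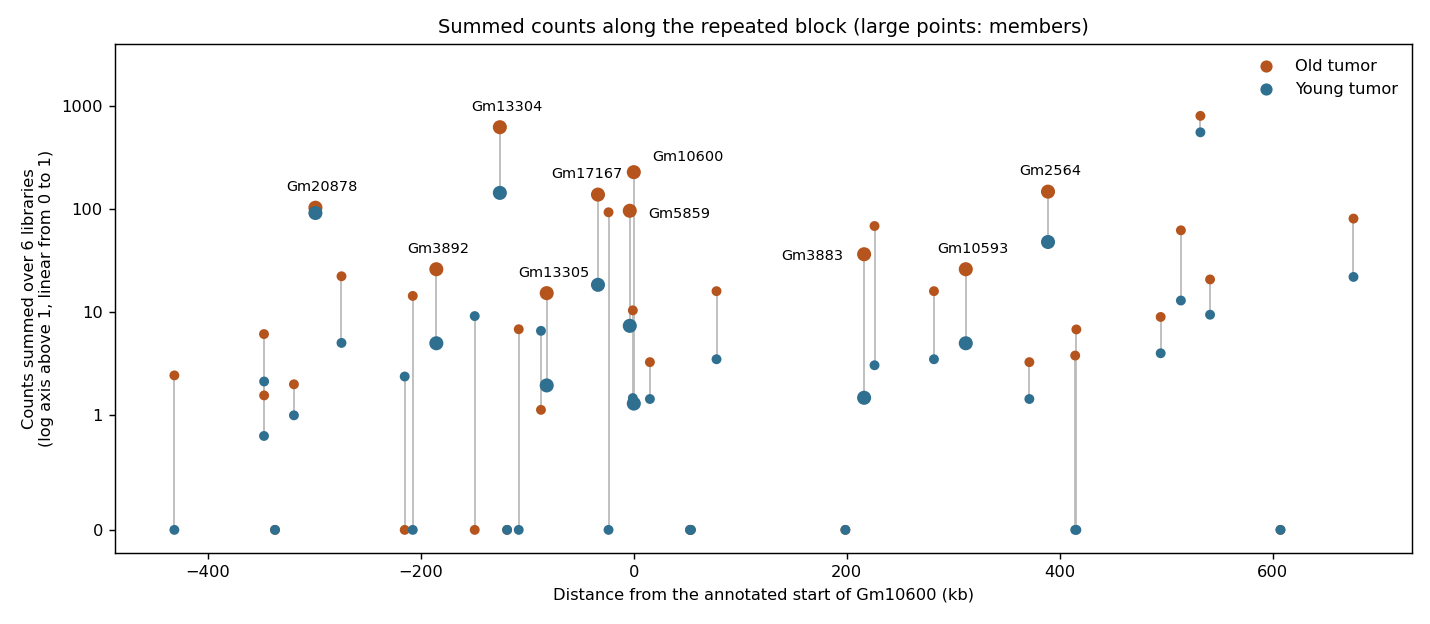
Expected counts summed over 6 libraries of each age (orange Old tumor, blue Young tumor; log axis above 1, linear between 0 and 1) against the distance of each gene's annotated start from that of Gm10600, in kb, for the members (large, named) and for the listed neighbours and genes sharing sequence with members (small). The 4 repeat genes with the highest Old sums, Gm10600, Gm17167, Gm5859 and Gm13301, sit within 35.7 kb, and Gm10600 has 228 counts in Old tumors and 1.3 in Young tumors.

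The map of summed counts shows Gm13304 and Gm2564 on either side of that run, with counts at both ages. Gm13304, the CCL21 copy, had the highest counts of the members and the widest spread. Its expected counts were 246.55, 9, 9.92, 52.13, 298.05 and 7.98 in Old tumors 1 to 6, against 0, 18.19, 3.77, 50.24, 52.37 and 19.2 in Young tumors 1 to 6. Only Old tumors 1 and 5 were above all Young tumors, and the other 4 Old tumors lay within the range of the Young tumors. The fitted log2 fold change was 2.03 with an SE of 0.99, it was 1.14 with the replicate number as a block, and without Old tumors 1 and 5 it was -0.33.

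Ccl21a, the annotated CCL21 gene at the far end of the block, followed the same libraries. It had 333.45, 0, 14.56, 55.87, 390.95 and 7.97 counts in Old tumors 1 to 6 and 46, 104.81, 47.35, 160.76, 97.63 and 99.8 in Young tumors 1 to 6. Old tumors 1 and 5 were the highest of the 12 libraries, and Old tumors 2, 3 and 6 the lowest. With edgeR the log2 fold change of Ccl21a was 0.43 (SE 0.90, adjusted p = 0.824); without Old tumors 1 and 5 it was -2.28 (adjusted p = 0.085). Neither value passed the threshold. The direction also turned without Old tumor 1 alone (-0.11) or Old tumor 5 alone (-0.27), and, with all libraries kept, with the replicate number as a block (-1.08) and on log2(TPM + 1) (-0.63) and log2(TPM + 0.1) (-1.33).

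The CCL21 copies pooled had 580, 9, 27, 108, 689 and 19.99 counts in Old tumors 1 to 6 and 46, 123, 54, 211, 150 and 119 in Young tumors 1 to 6. These sums, and those of the CCL19, CCL27 and IL11RA copies, came out whole to within 0.05 in 47 of 48 cases. Of the 39 values above 0 of the members in them, 7 did. Where more than 1 gene of a family had counts, reads were thus nearly always divided within the family and not between families. Where 1 gene alone had counts, as Il11ra1 in every Young tumor except Young tumor 4, the sum says nothing of division. Gm13304 took 43.5% of the pooled CCL21 counts in Old tumors and 20.5% in Young tumors. Its share by library was 36.7% to 100% in Old tumors and 0% to 34.9% in Young tumors, a separation that concerns the division of reads among transcripts with 5 differences in 837 bases. In Old tumor 2 all 9 reads went to Gm13304 and none to Ccl21a, and in Young tumor 1 all 46 went to Ccl21a and none to Gm13304.

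**Figure D4:**
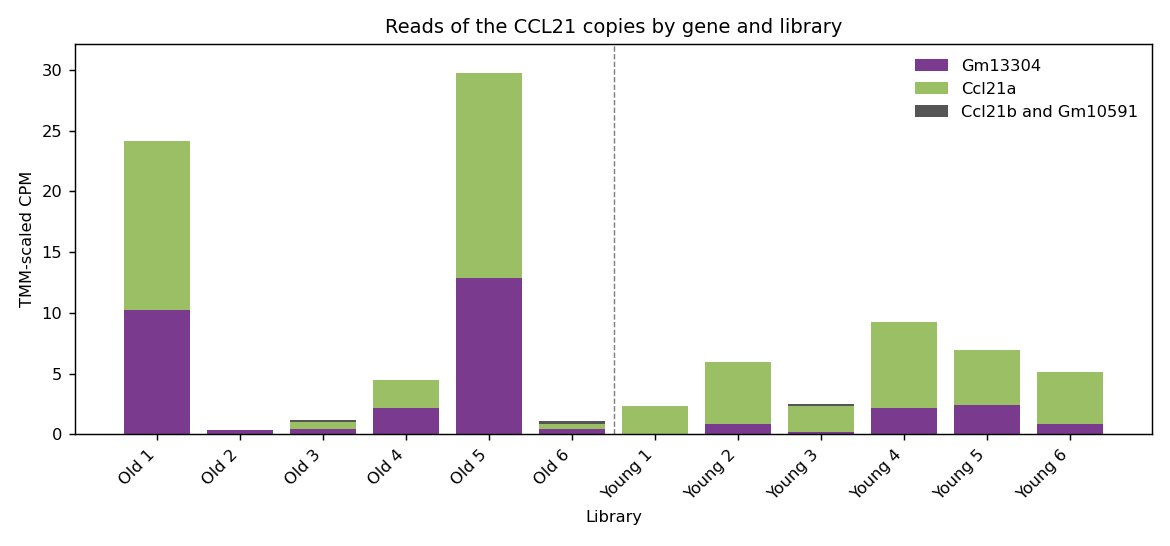
Level of the CCL21 copies in TMM-scaled CPM for each library (Old tumors left of the dashed line, Young tumors right), stacked as Gm13304 (purple), Ccl21a (green) and Ccl21b with Gm10591 (grey). Old tumors 1 and 5 reach 24.1 and 29.8 CPM, the other Old tumors 0.371 to 4.50, and the Young tumors 2.31 to 9.25.

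The stacked levels show that 2 libraries hold most CCL21 reads of the Old tumors. The same libraries were high in markers of lymphatic endothelium, the cell type best known for CCL21. The summed level of 4 of its markers without Ccl21a was 116 CPM in Old tumor 1 and 136 in Old tumor 5. It was 40.4 to 91.4 in the other Old tumors and 54.8 to 94.7 in Young tumors. The other Old tumors did not keep a common order. Old tumor 2 had 91.4 CPM of these markers and 0.371 CPM of CCL21 copies, and Old tumor 4 had 40.4 and 4.50 CPM. Blood endothelial markers were at 232 CPM in Old tumor 1, 160 in Old tumor 2 and 141 in Old tumor 5, with 54.8 to 94.8 in the other Old tumors and 53.8 to 86.6 in Young tumors, and fibroblast markers were at 5965 CPM in Old tumor 1, with 782 to 2446 in the other Old tumors and 871 to 2203 in Young tumors. T cell markers, T cells being among the cells that CCR7 ligands guide, summed to 2.81 to 10.2 CPM in Old tumors (median 3.95) and 6.11 to 14.2 in Young tumors (median 10.8). B cell markers reached 8.83 CPM in Old tumor 1, with at most 2.29 in the other Old tumors and 0.926 in Young tumors. Acinar markers were at 0.250 to 2.44 CPM in Old tumors and 0.433 to 11.96 in Young tumors. No marker of the 8 lists was at 0 in every library, and none of the tested markers passed the edgeR threshold in either direction. The B cell and acinar markers did not pass the filter on low counts and were not tested. The part of these cells in the CCL21 values was not tested.

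Gm2564, the CCL19 copy, had 60.8, 7.77, 19.31, 28.4, 28.12 and 3.43 counts in Old tumors 1 to 6 and 0, 7.69, 9.03, 5, 5.14 and 21.15 in Young tumors 1 to 6. The ages overlapped: Old tumors 2, 3 and 6 lay below Young tumor 6. Its mean was 1.04 ± 0.84 CPM in Old tumors and 0.360 ± 0.308 CPM in Young tumors (SD, n = 6 each). Ccl19 itself had 5.57 to 18.2 counts in Old tumors and 0 to 3.85 in Young tumors; the ages did not overlap, and the gene did not pass the filter on low counts and was not tested. The CCL19 copies pooled, 5 genes, had 1.56 ± 1.07 CPM in Old tumors and 0.468 ± 0.362 CPM in Young tumors, with overlap.

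Gm20878, the CCL27 copy, was the member most alike between the ages. It had 25.07, 27.75, 20.21, 14.78, 3.07 and 12.35 counts in Old tumors 1 to 6 and 31.9, 8.09, 15.34, 12.59, 15.58 and 8.25 in Young tumors 1 to 6, and a log2 fold change of 0.05 (SE 0.46). It took 5.36% of the CCL27 family's counts in Old tumors and 5.23% in Young tumors. The family summed to 14.0 ± 2.1 CPM in Old tumors and 13.5 ± 1.9 CPM in Young tumors (SD, n = 6 each), nearly all of it Ccl27a. Gm13305, the IL11RA copy, had 2.89, 1.93, 7.54 and 2.96 counts in Old tumors 2 to 5, 1.95 in Young tumor 4 and 0 in the other libraries. The ages of Gm13305 overlapped. Rounded, these are 16 counts in Old tumors and 2 in Young tumors, a ratio of 7.58. The exact 95% interval for counting error alone was 1.78 to 67.9, and it leaves out the spread between tumors and the division of reads. The IL11RA copies together held 34.5 ± 7.6 CPM in Old tumors and 32.0 ± 4.7 CPM in Young tumors, of which Gm13305 was 0.321% in Old tumors and 0.0469% in Young tumors.

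Per length, in the authors' TPM, a level relative to transcript length and library, the order of the members in Old tumors was led by Gm13304 at 9.59 ± 12.3 TPM, followed by Gm2564 at 2.72 ± 2.16, Gm20878 at 1.53 ± 0.72 and Gm10600 at 1.38 ± 0.63 (SD, n = 6). Below them came Gm5859 at 0.50 ± 0.31, Gm13305 at 0.385 ± 0.494, Gm17167 at 0.327 ± 0.165, Gm3883 at 0.132 ± 0.154, and Gm10593 and Gm3892 at 0.0883 ± 0.0763 TPM each. Each neighbouring pair in this order differed by less than the larger SD of the pair, apart from Gm10600 and Gm5859, which differed by 0.88 TPM, and Gm17167 and Gm3883, which differed by 0.195 TPM. In Young tumors the order began with Gm13304 at 2.12 ± 1.93 TPM, Gm20878 at 1.32 ± 0.79 and Gm2564 at 0.878 ± 0.772, and each other member had a mean of 0.0517 TPM or less; Gm10600 had 0.00833 ± 0.0204 TPM, ahead of Gm3883 alone.

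The annotated genes in and around the block were described from a list of 22, among them Ccl21c, a RefSeq name of Gm13304 without a row of its own. Of these, 21 were in the table and 15 passed the filter on low counts. Of the 15, 0 passed the edgeR threshold and 0 passed with DESeq2. Among all tested genes, 2.26% passed in edgeR and 8.99% with DESeq2, in either direction. At an unadjusted p under 0.05 there were 3 of 15 with edgeR and 3 with DESeq2, where 21.1% of all tested genes had such a p with edgeR and 22.6% with DESeq2. The edgeR fold changes were above 0 for 9 and below 0 for 6, with a median of 0.08 on the log2 scale, against 0.03 for all tested genes. Ccl27a averaged 13.3 ± 1.9 CPM in Old tumors and 12.7 ± 1.7 CPM in Young tumors, and Il11ra1 34.3 ± 7.7 CPM in Old tumors and 32.0 ± 4.7 CPM in Young tumors (SD, n = 6 each). Galt, an enzyme of galactose breakdown, had a log2 fold change of 0.14 (SE 0.11). Vcp, an abundant ATPase that unfolds proteins, had -0.10 (SE 0.10). The 3 with an unadjusted p under 0.05 in edgeR were Rpp25l at -0.27 (SE 0.10, adjusted p = 0.151), Fam219a at 0.45 (SE 0.18, adjusted p = 0.175) and Dctn3, a dynactin subunit, at -0.17 (SE 0.07, adjusted p = 0.199).

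**Figure D5:**
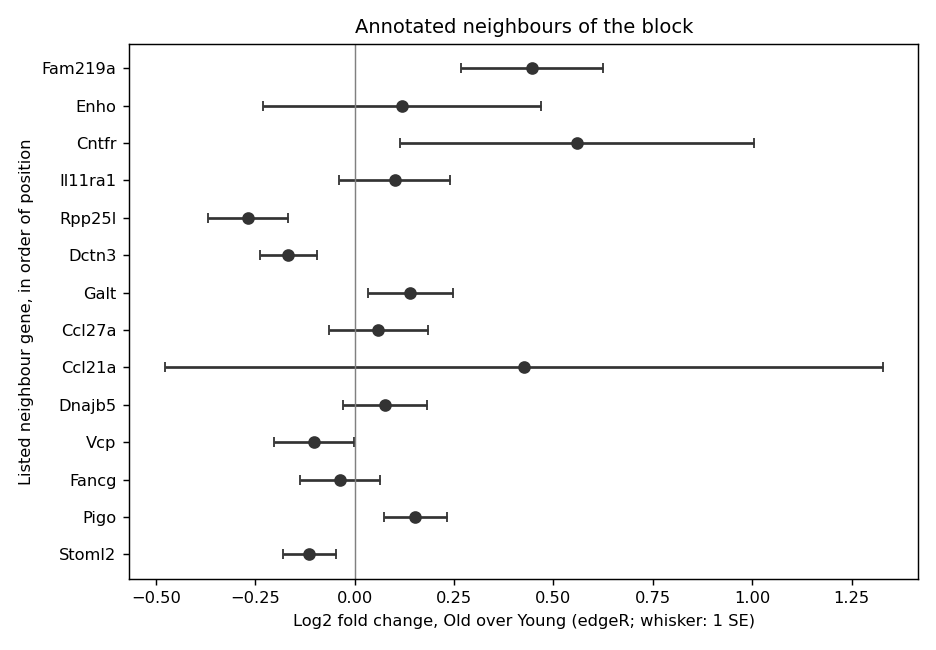
Log2 fold change, Old over Young, from the edgeR fit (point) with 1 SE (whisker) for the tested genes of the neighbour list, 1 of them left out, from the lowest position on chromosome 4 at the top to the highest at the bottom. The points lie between -0.27 for Rpp25l and 0.56 for Cntfr, and Ccl21a has the widest whisker, an SE of 0.90.

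The plot of neighbour fold changes shows values between -0.27 and 0.56 on the log2 scale, on both sides of 0. Among all genes that overlap chromosome 4 between 41 and 43 Mb, 77 were no members, 24 of these were tested, and 0 passed the edgeR threshold, with 8 at an unadjusted p under 0.05 (21.1% of all tested genes had such a p). DESeq2 called 1 of the 24, where it called 8.99% of all tested genes. This was Ube2r2, a ubiquitin-conjugating enzyme, at -0.21 (SE 0.06, adjusted p = 0.017). With no filter on low counts, edgeR tested 59 and called 1, where it called 0.517% of all genes in that fit. This was Gm13301, at 6.92 (SE 0.82). The fitted value depends on the prior count because all Young tumors were at 0. Gm13301 shares 1303 bases with the member Gm17167 without a difference, so its reads were divided with a gene chosen from this contrast. Nothing is read from its call.

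Likeness across libraries was measured for Gm13304, the most abundant member, over 16010 genes. The highest Pearson correlations of log2 CPM over the 12 libraries were with Mblac2 (0.92), Zxdc (0.86), Fbln5 (0.83), Sgtb (0.83) and Cln6 (0.82), and that with Gm10600 was 0.42. After the mean of each age was taken off, they were with Bub3 (0.95), Mblac2 (0.93), Nosip (0.87), Usf2 (0.86) and Tmem123 (0.86), with Gm10600 at 0.45. All these points share their libraries and depth, and the highest of 16010 correlations are high by selection.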

How the data were processed

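Poly(A) RNA with a strand-marking library kit was used, per the labels' protocols, and cutadapt 2.3, STAR 2.7.0d, RSEM 1.3.1 and the build mm10 are named in the submitters' processing notes. The authors deposited expected counts, not normalized, and TPM for 47643 genes in 12 libraries; neither the annotation nor the strand setting was stated in the labels or notes used here. Library totals were 17755000 to 24098000 counts. Intervals were taken on rounded counts summed over libraries and cover counting error only. They leave out the spread between tumors and the division of reads among copies, and are no tests of age. Expected counts were rounded, filtered with filterByExpr, scaled with TMM and tested by the two-sided edgeR 4.0.16 quasi-likelihood test with Benjamini-Hochberg adjustment over 16013 genes (threshold 0.05, R 4.3.3). DESeq2 1.42.0 and limma 3.58.1 on log2(TPM + 1) and log2(TPM + 0.1) were alternatives, with other scalings and filters, a replicate block, and leaving out libraries. The fit was run on data simulated from its own mean levels and spreads. It recovered 55.1% of genes changed 1.5-fold, 70% changed 2-fold and 98% changed 8-fold, and 5.42% of its calls were false. The simulation did not model the division of reads or outlying libraries, so it does not test these. Transcripts of GENCODE M21 (GRCm38) were aligned with BLAST 2.17.0, keeping alignments of at least 100 bases and 90% identity; unique stretches were counted over 50 bases. RefSeq tables gave gene types and promoters.

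The members and lists were chosen with earlier results of these data known. Named genes were all members, the neighbour list, genes of the 41 to 43 Mb window past the threshold, alignment partners outside the window, and the 5 genes most like the most abundant member in each of 2 ways. Genes outside this rule that are named, such as Gm13301, were chosen after their values were seen. Groups came from the sample titles, no library was left out of the main results, and members carry no p because the same contrast chose them. No protein sequences were used, and 1 gene of the neighbour list is counted but not reported here.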

Additional observations from a re-analysis of the deposited data

Results flagged for a closer look

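Within an age, the library farthest from the others was compared with the whole range of its age (the gap to its nearest neighbour, by Dixon's 95% critical value) in 30 sets of values; chance marks about 1 in 20 such sets where values vary freely. In Old tumors, Gm10600 in Old tumor 1 stood apart at 75.17 counts, with the next Old tumor at 40.29. In Young tumors, 4 genes stood apart by being above 0 in a single library, with all others at 0, which fixes the outcome for any value above 0, so that the rate of 1 in 20 does not apply: Gm10600 in Young tumor 2 at 1.3 counts, Gm5859 in Young tumor 4 at 7.38, Gm13305 in Young tumor 4 at 1.95, and Gm3883 in Young tumor 1 at 1.48. Gm20878 in Young tumor 1 was at 31.9 counts, with the next Young tumor at 15.58.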

How the results depend on the processing

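The count of all genes passing the threshold, 362 (127 higher, 235 lower in Old tumors), was the value most dependent on the processing. It was 1439 with DESeq2 and 151 with no filter on low counts, it ranged between 2 and 1106 when 1 library was left out (1106 on omitting Old tumor 1, 2 on omitting Old tumor 3, 9 on omitting Young tumor 1 and 12 on omitting Old tumor 2), and it was 742 without Old tumors 1 and 5 together, a setting chosen after seeing the data. With total-count scaling the split was 152 higher and 143 lower; on TPM it was 291 and 48 with a pseudocount of 1, and 312 and 44 with 0.1, where the median log2 fold change of all genes also moved by 0.10 and 0.13. The cause was not tested. Replicate numbers run through both ages without a stated link: same-numbered libraries had correlations of their deviations of -0.23 to 0.14, 1 of 6 numbers fitted best with itself, and the replicate block left 1 gene called. The block changed no call among the neighbours or the window; the summed member level is 1.76 with it by construction, since each number occurs once per age.

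Among the other genes of the window, 0 called became 1 with DESeq2, 1 with no filter on low counts and 2 of 66 between 40 and 44 Mb (Unc13b at 0.35, Ndufb6 at -0.44, outside the narrower window). Over all genes, the main fit, also used for the wider window, called 2.26%, DESeq2 8.99% and edgeR with no filter 0.517%. The neighbour list stayed at 0 in all 22 alternatives. The mean log2 level of the members summed was 1.76 higher in Old tumors (pooled SD 0.86, n = 6 each); it spanned 1.49 to 2.08 when 1 library was left out, was 1.12 without Old tumors 1 and 5, and was 0.29 once all window genes sharing sequence were added, among them the abundant Il11ra1 and Ccl27a. Of the members' log2 fold changes under the alternatives, 151 moved by less than 1 SD between libraries and 45 by more. DESeq2 and the filters do not alter a sum and gave no value for it. Depth limits the members: 7 of 10 did not pass the filter, and a Young value of 0 at these totals does not show absence.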
